A study of Mus musculus with 24 samples.

Results

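The comparison described here asked how bone marrow-derived macrophages (BMDMs) given CDDO-Me differed when their medium came from WT or from NRF2 KO lung cancer cells. The rule took 2 groups of 3 libraries, WT CM/CDDO-Me and NRF2 KO CM/CDDO-Me, which are 6 of the 24 libraries and 2 of the 8 groups in the series. LL2 cells are a Lewis lung carcinoma line of C57BL/6 origin, and CM is the medium they had conditioned for 48 h. BMDMs of C57BL/6 mice, grown out with M-CSF, received 75% CM with fresh DMEM and either vehicle or 100 nM CDDO-Me for 24 h, and poly-A RNA was sequenced. All macrophages were genetically unmodified. The knockout, made with Cas9 and guide RNAs, lay only in the cancer cells that had conditioned the medium, so the transcript of the deleted gene in these libraries is no check of the labels. The labels carry 1 code for the NRF2 KO line, so medium from 1 edited line stands for the genotype. They number 3 replicates per group without tying them to mice, and p-values measure the spread between these samples, which may be technical.

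NRF2, encoded by Nfe2l2, is a transcription factor that switches on antioxidant and detoxifying enzymes, and KEAP1 marks it for degradation. CDDO-Me is a synthetic triterpenoid that modifies KEAP1 and so activates NRF2. Interferons bind surface receptors, activate JAK kinases and the STAT factors, and induce genes whose promoters hold interferon-stimulated response elements or gamma-activated sites. Interferon gamma is known in macrophages for raising antigen presentation, guanylate-binding proteins and the chemokines that attract T cells. IL-4 acts through STAT6 on a different programme, called alternative activation, of which Arg1, Retnla and Chil3 are textbook markers.

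Of 35770 gene names 13661 were expressed enough to be tested, and of these 1952 (14.3%) genes were higher and 1608 (11.8%) were lower in WT CM/CDDO-Me than in NRF2 KO CM/CDDO-Me BMDMs at an adjusted p under 0.05. The median log2 difference over all tested genes was -0.00425. The large rises outnumbered the large falls. At a log2 difference of at least 3 there were 140 genes higher and 13 lower, and at a log2 difference of at least 1 there were 794 higher and 616 lower. Levels were taken as TPM, a read share corrected for transcript length, and are given in the order of replicates 1, 2 and 3. Differences are WT CM minus NRF2 KO CM on the scale of log2(scaled TPM + 1), with the standard error of the limma fit and n = 3 libraries per group throughout. Because 1 is added before the logarithm, they understate the change of genes near 0. Without scaling between libraries the median of all genes moved to -0.145 and the split became 1372 higher and 2669 lower, so the balance of small rises and falls depends on the scaling.

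One library stood apart. Replicate 3 of NRF2 KO CM/CDDO-Me had 16299 genes above 0, against 17817 to 18993 in the other 5 libraries of the comparison. Replicate 3 of NRF2 KO CM/vehicle, with 15702, was the lowest of all 24. Without the former the fit called 1807 genes higher and 1671 lower, and counts of list members that moved by more than 1.5 times without it are given both ways. The depth of the libraries is unknown, because TPM holds no read totals. Of the macrophage markers, Lyz2 (12084 to 15375 TPM with WT CM and 25285 to 34332 TPM with NRF2 KO CM) and Csf1r (660.4 to 749 and 1013 to 1599 TPM) were high in every library, as the labels have it.

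The genes with the largest rises were interferon-induced. The 12 named by size were Cxcl9, Gbp4, Iigp1, Tgtp2, Gbp2, Ccl5, Gbp6, Gbp2b, Tgtp1, Serpina3f, Gbp5 and Cxcl10, and of these only Ccl5 and Serpina3f were outside the interferon gamma list. Promoter windows from RefSeq (build GRCm38.p6, 250 bases before to 50 after the gene start) are printed 5′ to 3′ for 4 rising genes and for the falling gene Gsta3. Of the 4, Cxcl9, Gbp2 and Gbp5 are among the 12 and Igtp is not. These genes were picked as examples and not by a rule, so their matches do not show how common a match is. In the first 4, capitals mark matches to GAAANNGAA, the core of the interferon-stimulated response element, and to TTCNNNGAA, the gamma-activated site, on either strand. In Gsta3, capitals mark TGACNNNGC, the core of the antioxidant response element that NRF2 binds, which also lies in the Igtp window, in lower case, 194 bases before the start. The windows are Cxcl9 (chr5:92328030-92328329, minus strand), Gbp2 (chr3:142620413-142620712, plus strand), Gbp5 (chr3:142496684-142496983, plus strand), Igtp (chr11:58199306-58199605, plus strand) and Gsta3 (chr1:21240335-21240634, plus strand).
Cxcl9: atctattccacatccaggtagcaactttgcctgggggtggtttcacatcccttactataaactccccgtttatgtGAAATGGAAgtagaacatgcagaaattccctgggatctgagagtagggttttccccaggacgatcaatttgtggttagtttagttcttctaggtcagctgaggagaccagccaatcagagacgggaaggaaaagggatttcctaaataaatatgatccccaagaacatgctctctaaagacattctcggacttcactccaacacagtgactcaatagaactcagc
Gbp2: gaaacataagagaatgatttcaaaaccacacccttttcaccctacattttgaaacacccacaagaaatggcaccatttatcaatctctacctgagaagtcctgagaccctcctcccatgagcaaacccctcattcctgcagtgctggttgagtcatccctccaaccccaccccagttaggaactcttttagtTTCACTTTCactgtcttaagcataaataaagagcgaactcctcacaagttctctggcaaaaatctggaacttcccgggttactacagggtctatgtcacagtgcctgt
Gbp5: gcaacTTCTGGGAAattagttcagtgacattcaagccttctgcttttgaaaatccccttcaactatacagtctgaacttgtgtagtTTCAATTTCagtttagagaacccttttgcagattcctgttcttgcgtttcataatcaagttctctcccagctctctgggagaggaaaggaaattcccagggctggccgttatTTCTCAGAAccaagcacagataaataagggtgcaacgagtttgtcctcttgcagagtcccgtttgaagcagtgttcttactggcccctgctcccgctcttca
Igtp: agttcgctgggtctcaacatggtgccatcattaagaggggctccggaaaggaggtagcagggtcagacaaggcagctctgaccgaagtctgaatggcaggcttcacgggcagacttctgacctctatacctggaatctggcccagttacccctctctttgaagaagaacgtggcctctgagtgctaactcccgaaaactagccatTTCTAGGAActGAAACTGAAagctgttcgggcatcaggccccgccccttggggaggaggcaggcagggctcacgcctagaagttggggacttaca
Gsta3: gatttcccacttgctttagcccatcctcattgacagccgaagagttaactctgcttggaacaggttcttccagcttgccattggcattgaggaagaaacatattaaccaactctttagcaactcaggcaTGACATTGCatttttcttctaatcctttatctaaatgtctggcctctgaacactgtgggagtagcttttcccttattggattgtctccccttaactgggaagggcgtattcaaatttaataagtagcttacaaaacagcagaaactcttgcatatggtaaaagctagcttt

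The response element core began 175 bases before the gene start in Cxcl9, 58 before it in Gbp2, 164 before it in Gbp5 and 34 before it in Igtp. Gbp5 also held the gamma-activated site, 245 and 52 bases before the start, and Igtp held it 45 bases before the start, where it overlaps no other printed match. Of the 12 genes with the largest rises 8 had at least 1 window in the table, and all 8 held the response element core in at least 1 window. Of the 12 with the largest falls 9 had at least 1 window, and 2 of them, Mmp27 and Slc6a12, held it, Slc6a12 in some of its 5 windows only. These counts are per gene over any of its windows, whereas the shares in percent are per window. Over the 12794 windows of tested genes the share with this core was 7.28%, and over all 32851 windows in the table it was 8.56%. Among windows of genes called higher by at least 3 on the log2 scale it was 39.6% (40 of 101), and among those of genes called lower by at least 1 it was 7.07% (42 of 594). The gamma-activated site stood in 18.8% of the windows of the first set and in 6.85% of those of all tested genes. For the antioxidant response element core the shares were 13.8% of the windows of genes called lower by at least 1, 34.9% of those of the NRF2 target list and 14.3% of those of tested genes. By gene it stood in 1 of the 8 with the largest rises, Cxcl10, and in 2 of the 9 with the largest falls, Ms4a4a and Gsta3. A match is a run of letters in a short window and does not show that a factor binds there.

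**Figure D1:**
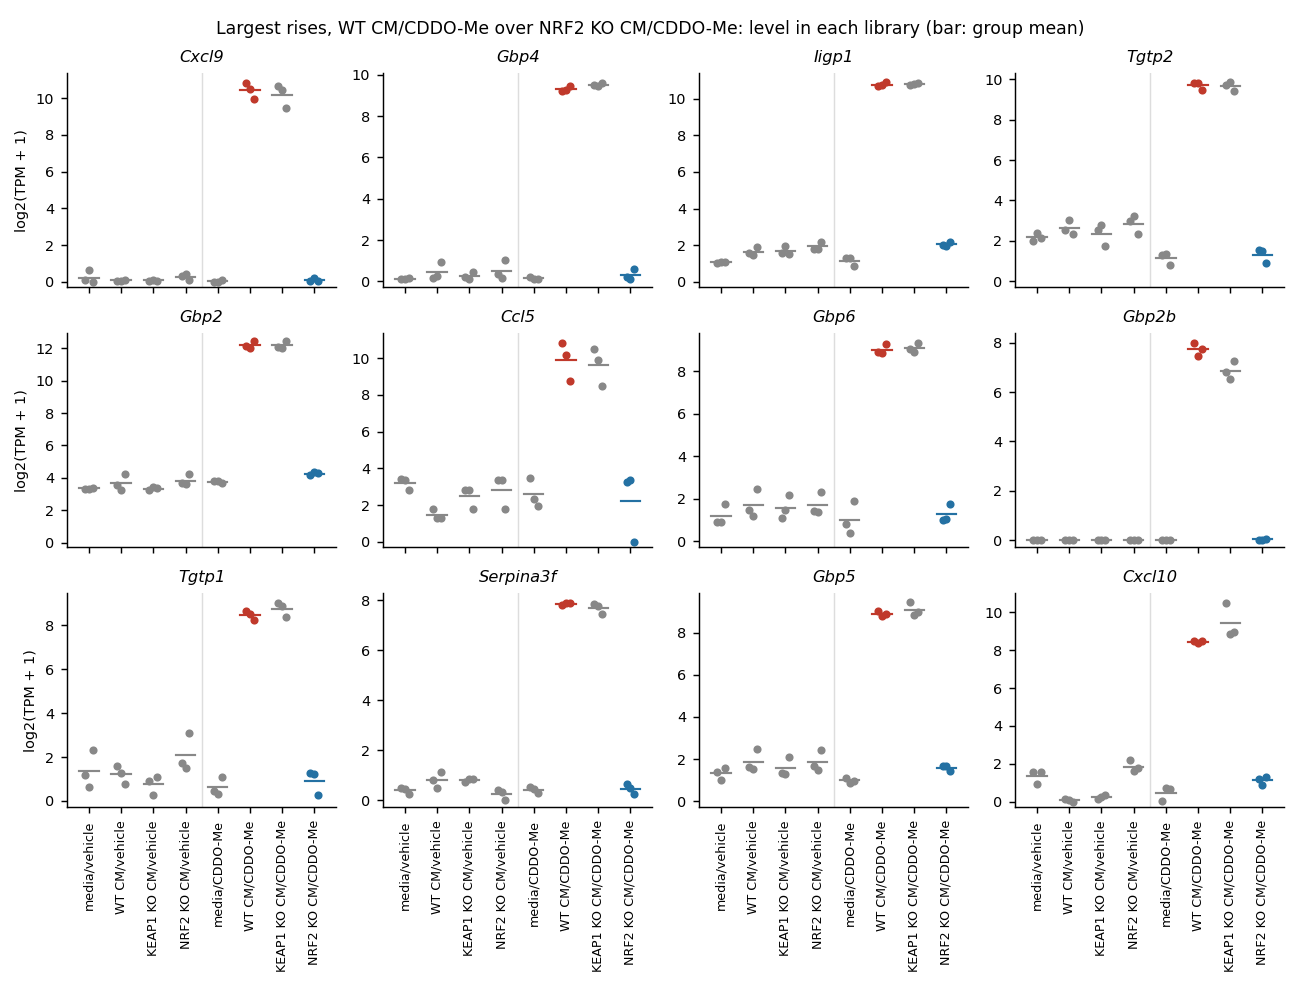
Level of the 12 genes with the largest rises, as log2(TPM + 1) on each vertical axis, in each of the 24 libraries by group (points), with the group mean (bar); red is WT CM/CDDO-Me and blue is NRF2 KO CM/CDDO-Me. The 12 genes were chosen as rises without overlap of the red and blue groups, so that separation follows from the choice. The KEAP1 KO CM/CDDO-Me points lie near the red ones.

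The gene with the largest rise of all those tested encodes a chemokine that binds CXCR3 on T cells and NK cells. Cxcl9 was at 1792, 1458 and 981 TPM in the WT CM/CDDO-Me libraries and at 0.0394, 0.149 and 0.0546 TPM in the NRF2 KO CM/CDDO-Me libraries (log2 difference 10.45 ± 0.23, adjusted p = 1.5e-17). Cxcl10, which acts on the same receptor, was at 361, 329 and 358 TPM and at 1.32, 0.873 and 1.5 TPM (7.45 ± 0.31, adjusted p = 5.55e-13). Both were therefore abundant with WT CM and close to 0 with NRF2 KO CM. Ccl5, a CC chemokine gene, was at 1806, 1149.5 and 433 TPM with WT CM and at 8.73, 9.2 and 0 TPM with NRF2 KO CM, where replicate 3 was listed at 0 (7.89 ± 0.72, adjusted p = 7.21e-08). The WT CM libraries varied more for Ccl5 than for Cxcl10. Ccl8, a further CC chemokine, was at 66.5, 118 and 76.1 TPM and 1.83, 1.61 and 0.91 TPM (5.3 ± 0.34, adjusted p = 4.31e-10). Over the chemokine list, 6 of 24 tested members rose (25%) and 4 fell (16.7%), with a median of -0.22. The shares of all tested genes were 14.3% and 11.8%.

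Guanylate-binding proteins and immunity-related GTPases, which attack the vacuoles of intracellular microbes, made up 8 of these 12 genes. Gbp2, on chromosome 3, was at 4494, 4152 and 5675 TPM with WT CM and at 16.9, 19.2 and 18.6 TPM with NRF2 KO CM (8.11 ± 0.22, adjusted p = 4.52e-16), and Gbp2b, on the same chromosome, was at 253, 177 and 213 TPM and 0.0134, 0 and 0.0445 TPM (7.85 ± 0.17, adjusted p = 1.5e-17). Gbp4, on chromosome 5, was at 604, 607 and 703 TPM and 0.167, 0.0839 and 0.506 TPM (9.14 ± 0.22, adjusted p = 4.41e-17). Gbp members of both chromosomes thus moved the same way, and Gbp2 reached the highest level of the family. Iigp1 was at 1647, 1688 and 1879.6 TPM with WT CM and at 3.02, 2.96 and 3.53 TPM with NRF2 KO CM (8.86 ± 0.15, adjusted p = 1.48e-18). Irgm1 was at 815, 797 and 905 TPM and 29.3, 25.1 and 28.9 TPM (5.04 ± 0.11, adjusted p = 1.5e-17), and Irgm2 at 264, 274 and 249 TPM and 11, 10.6 and 11.5 TPM (4.62 ± 0.10, adjusted p = 1.5e-17). Irgm1, Irgm2 and Gbp2 were still clearly expressed with NRF2 KO CM, whereas Gbp2b and Gbp4 were close to 0 there. Tgtp1 and Tgtp2 (7.71 and 8.54 on the log2 scale) are near-identical neighbours, as are some Gbp genes on chromosome 5, and how reads were divided between such copies is uncertain.

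The interferon gamma list as a whole followed these genes. Of its 33 tested members 31 rose, 1 fell and 1 did not pass, with a median log2 difference of 5.04. The member that fell, Ifngr1 (-0.51 ± 0.16, adjusted p = 0.0244), encodes a chain of the interferon gamma receptor, and the member that did not pass was the other chain, Ifngr2 (0.34 ± 0.19, adjusted p = 0.214). Without replicate 3 of NRF2 KO CM/CDDO-Me 31 members rose and 0 fell. In the type I interferon list 42 of 43 tested members rose and none fell, with a median of 2.47, and Isg20 alone did not pass (-0.45 ± 0.28, adjusted p = 0.261). Ifi47 (5.89 ± 0.18, adjusted p = 2.52e-15), Slfn1 (4.95 ± 0.15, adjusted p = 1.64e-15) and Parp9 (2.58 ± 0.11, adjusted p = 4.67e-13) were among its members with the smallest adjusted p. The lists share members, so their counts are not independent. The interferon genes Ifng and Ifnb1 were listed at 0 in all 6 libraries.

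Among transcription factors, Irf1, which activates further interferon genes, was at 889.5, 915 and 986 TPM in WT CM/CDDO-Me and at 69.6, 66.2 and 86.7 TPM in NRF2 KO CM/CDDO-Me BMDMs (3.81 ± 0.24, adjusted p = 3.52e-10). Stat2 (2.47 ± 0.12, adjusted p = 4.41e-12) and Irf7 (3.1 ± 0.20, adjusted p = 3.48e-10) were higher too. The factor list held 9 rises among 15 tested members and no fall. The STAT6 gene, at 106, 111 and 107 TPM and 119.8, 128 and 94.9 TPM, did not pass (0.10 ± 0.12, adjusted p = 0.608), nor did Irf3 (0.21 ± 0.17, adjusted p = 0.409). Socs1, which shuts off JAK signalling, was at 111, 111 and 125 TPM and 1.28, 1.16 and 0.316 TPM (6.13 ± 0.21, adjusted p = 1.86e-14), so the feedback gene was nearly absent from BMDMs given NRF2 KO CM.

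**Figure D2:**
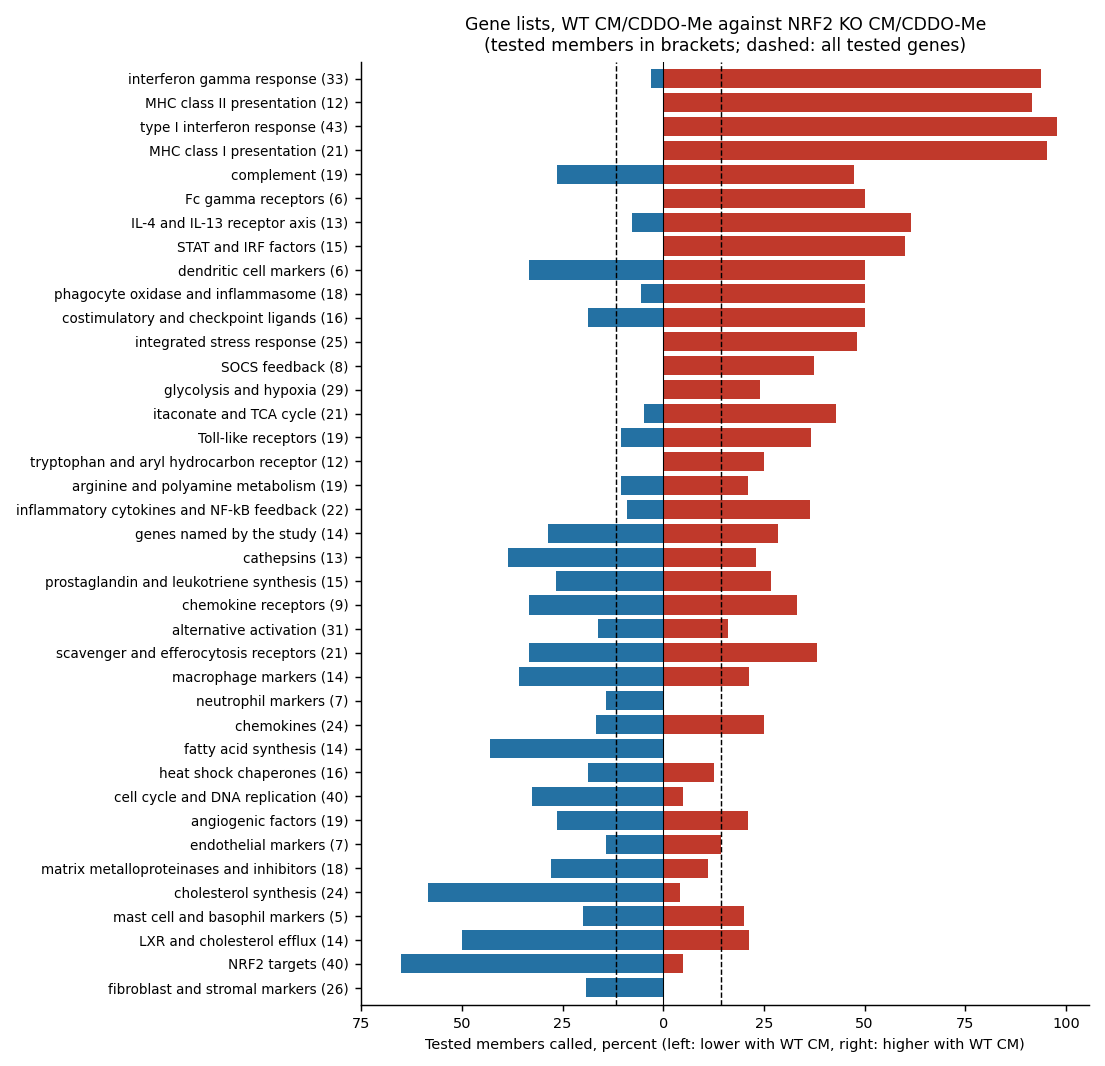
Share of tested members called higher (red, right) or lower (blue, left) in WT CM/CDDO-Me than in NRF2 KO CM/CDDO-Me BMDMs, in percent, for each gene list with at least 5 tested members, ordered by median log2 difference with the number tested in brackets. Dashed lines give the share of all tested genes, 14.3% higher and 11.8% lower; both interferon lists and both MHC lists exceed 90% higher, and the NRF2 target list has the longest blue bar at 65%.

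Antigen presentation rose in both of its branches. Of 12 tested MHC class II genes 11 rose, with a median of 3.77. Ciita, the master activator of class II genes, was at 190.0, 185 and 214 TPM with WT CM and at 4.24, 4.29 and 7.41 TPM with NRF2 KO CM (5.16 ± 0.29, adjusted p = 5.93e-11). H2-Aa, a class II alpha chain, was at 3021, 2818 and 3139 TPM and 174, 172 and 134 TPM (4.39 ± 0.24, adjusted p = 3.63e-11), and H2-Eb1, a beta chain, was at 2507, 2439 and 2553 TPM and 146, 145 and 82 TPM (4.53 ± 0.26, adjusted p = 8.49e-11). Activator and chains rose together in every library of the group. Of 21 class I genes 20 rose, with a median of 2.42. The peptide transporter gene Tap1 was at 362, 351 and 377 TPM and 23.7, 26.5 and 10.5 TPM (4.36 ± 0.28, adjusted p = 4.02e-10), and the immunoproteasome subunit gene Psmb9 at 284, 294 and 269 TPM and 31.4, 34.1 and 31.8 TPM (3.25 ± 0.17, adjusted p = 1.2e-11). The 2 presentation genes that did not pass were Canx (0.17 ± 0.10, adjusted p = 0.247), a chaperone gene, and Ctss (0.40 ± 0.17, adjusted p = 0.087), which encodes a protease of the class II route.

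Among surface ligands that T cells read through activating or inhibitory receptors, 8 of 16 tested genes rose (50%) and 3 fell (18.8%). Of all tested genes 14.3% rose and 11.8% fell. Without replicate 3 of NRF2 KO CM/CDDO-Me 1 of the ligand genes fell. Cd86, an activating ligand of CD28, was at 75.7, 66.1 and 76.1 TPM with WT CM and at 4.48, 4.28 and 7.3 TPM with NRF2 KO CM (3.72 ± 0.37, adjusted p = 2.13e-07). Cd274, which encodes PD-L1, was at 356, 321 and 386 TPM and 16, 14.5 and 28.3 TPM (4.33 ± 0.29, adjusted p = 7.11e-10). Pdcd1lg2, which encodes PD-L2, was at 25.7, 26.9 and 31.9 TPM and 0.0741, 0.207 and 0.487 TPM (4.68 ± 0.29, adjusted p = 2.27e-10). Both genes for ligands of the inhibitory receptor PD-1 were thus among the rises, as was Cd40 (2.6 ± 0.26, adjusted p = 3.33e-07). The genes that fell were Tnfsf4, which encodes OX40 ligand (-1.26 ± 0.39, adjusted p = 0.021), Cd276, which encodes B7-H3 (-0.72 ± 0.15, adjusted p = 0.00149), and Vsir, which encodes VISTA (-0.40 ± 0.14, adjusted p = 0.0381). Those that did not pass were Cd80, Tnfsf9, Pvr, Nectin2 and Cd200r1.

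Receptors for antibody and microbes, complement components and a cytokine group followed in part. Fcgr4, an activating IgG receptor, was at 1066, 997 and 1097 TPM with WT CM and 13.3, 10.6 and 24.1 TPM with NRF2 KO CM (6.19 ± 0.26, adjusted p = 5.24e-13), and Fcgr1, the high-affinity receptor, at 494, 448 and 496 TPM and 35.6, 32.3 and 24.4 TPM (4.1 ± 0.16, adjusted p = 1.95e-13). Fcgr3 did not pass (0.70 ± 0.27, adjusted p = 0.0662). Tlr12, whose product senses microbial profilin, was at 49.9, 49.4 and 57.5 TPM and 0.0236, 0.00996 and 0 TPM (5.85 ± 0.13, adjusted p = 1.5e-17). Tlr11, which works with it (3.98 ± 0.17, adjusted p = 6.66e-13), and the CpG DNA receptor gene Tlr9 (2.3 ± 0.26, adjusted p = 1.3e-06) also rose. Of 19 Toll-like receptor and adaptor genes 7 rose (36.8%) and 2 fell (10.5%), against 14.3% and 11.8% of all tested genes. Those that fell were Tlr2 (-0.89 ± 0.27, adjusted p = 0.018) and Tlr7 (-1.69 ± 0.45, adjusted p = 0.0085). Without replicate 3 of NRF2 KO CM/CDDO-Me 10 rose and 0 fell. In the complement list 9 of 19 rose (47.4%) and 5 fell (26.3%). Among the rises were the component genes C4b (4.08 ± 0.47, adjusted p = 1.5e-06), Cfb (3.88 ± 0.23, adjusted p = 1.12e-10) and C3 (2.75 ± 0.33, adjusted p = 2.39e-06). The 5 that fell were the anaphylatoxin receptor genes C3ar1 (-0.69 ± 0.13), C5ar1 (-1.76 ± 0.28) and C5ar2 (-1.27 ± 0.15) with Cd55 and Itgam, so the genes of these components and of the anaphylatoxin receptors went in opposite directions. Of 22 inflammatory cytokine and feedback genes 8 rose (36.4%) and 2 fell (9.09%). The rises were led by Il27 (4.43 ± 0.28, adjusted p = 2.82e-10), Ptgs2 (3.02 ± 0.34, adjusted p = 1.27e-06) and Tnf (2.13 ± 0.25, adjusted p = 1.89e-06). Il6, at 4.83, 2.62 and 0.821 TPM and 2.65, 2.05 and 3.11 TPM, did not pass (0.03 ± 0.43, adjusted p = 0.977), and Nos2, the nitric oxide synthase gene of classically activated macrophages, was higher but low, at 10.2, 9.08 and 2.09 TPM against 0.0971, 0.357 and 0.215 TPM (2.65 ± 0.48, adjusted p = 0.000351).

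**Figure D3:**
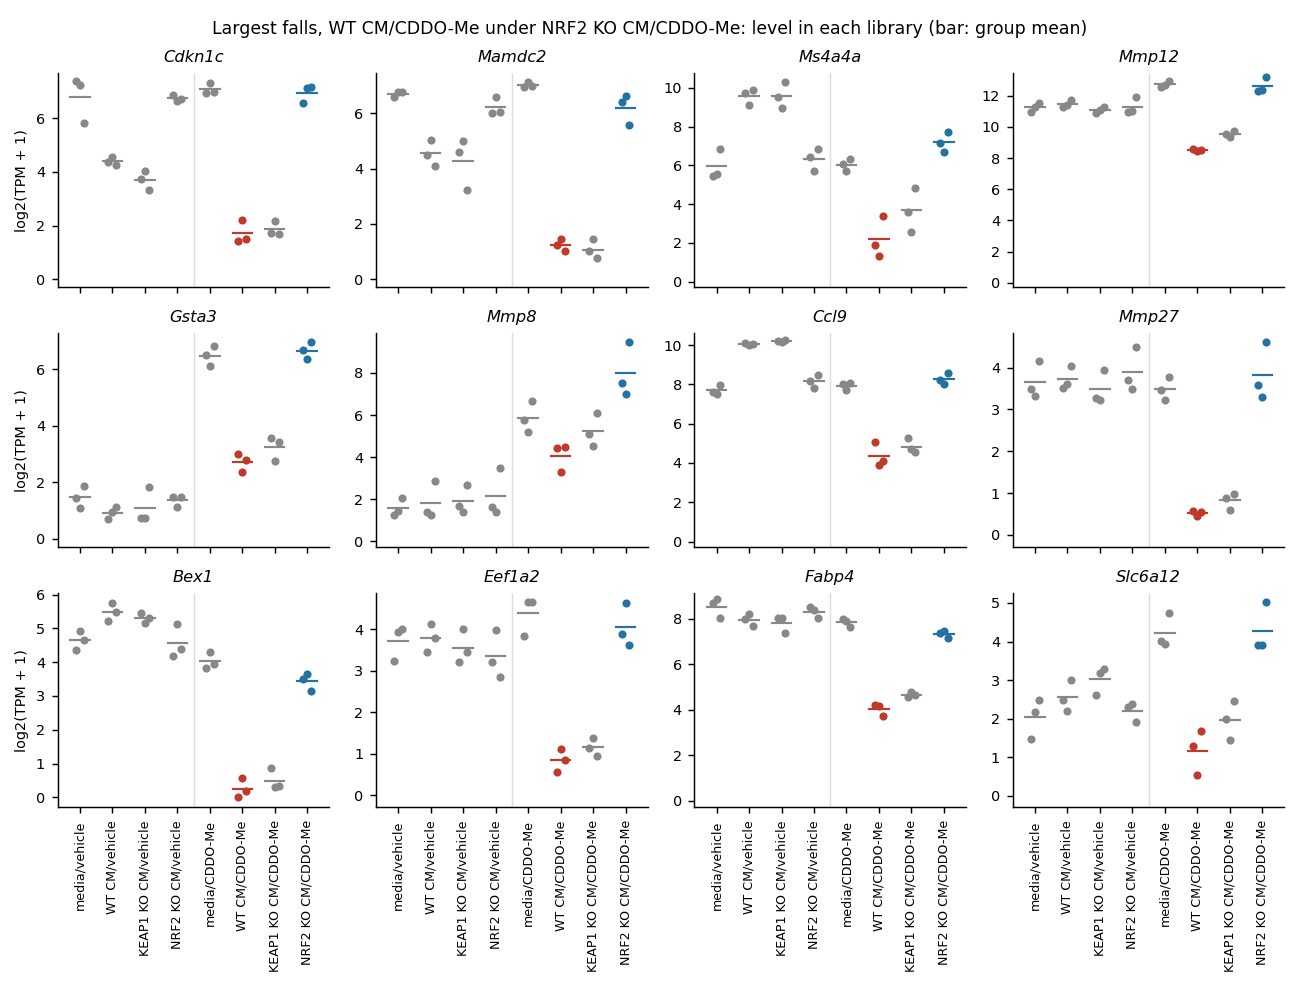
Level of the 12 genes with the largest falls, as log2(TPM + 1) on each vertical axis, in each of the 24 libraries by group (points), with the group mean (bar); red is WT CM/CDDO-Me and blue is NRF2 KO CM/CDDO-Me. The 12 genes were chosen as falls without overlap of the red and blue groups, so that separation follows from the choice. The mean of media/CDDO-Me lies nearer to the blue than to the red mean in every panel but that of Mmp8.

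The genes with the largest falls did not form a single family. They were Cdkn1c, Mamdc2, Ms4a4a, Mmp12, Gsta3, Mmp8, Ccl9, Mmp27, Bex1, Eef1a2, Fabp4 and Slc6a12, and 3 of the 12 encode matrix metalloproteinases. Cdkn1c, which encodes the cell cycle inhibitor p57, was at 1.72, 3.69 and 1.86 TPM with WT CM and at 93.6, 137 and 140.4 TPM with NRF2 KO CM (-5.08 ± 0.30, adjusted p = 1.01e-10). Mmp12, the macrophage elastase gene, was at 379, 350.4 and 361 TPM and 4935, 5273 and 9397 TPM (-3.94 ± 0.29, adjusted p = 2.35e-09). Fabp4, a fatty acid-binding protein gene, was at 17.7, 17.1 and 12.1 TPM and 162, 173 and 142 TPM (-3.12 ± 0.19, adjusted p = 2.35e-10). For these genes the low values were those of WT CM, and Mmp12 was the most abundant of the 12 in both groups. The chemokine gene Ccl9 was at 32.6, 14 and 16.1 TPM and 297, 261 and 374 TPM (-3.75 ± 0.27, adjusted p = 2.44e-09), and Ms4a4a, a membrane protein gene, at 2.71, 1.53 and 9.42 TPM and 141, 102 and 208 TPM (-4.84 ± 0.59, adjusted p = 3.54e-06). Spp1, the gene for osteopontin, was at 328, 474 and 487 TPM and 2434, 2229.7 and 1448 TPM (-2.06 ± 0.19, adjusted p = 7.2e-08), and the lysosomal protease gene Ctsk at 7.51, 9.26 and 6.6 TPM and 57.8, 56.4 and 41.7 TPM (-2.44 ± 0.15, adjusted p = 2.76e-10). Cathepsin genes did not share a direction, since Ctsc (3.58 ± 0.17, adjusted p = 3.14e-12) and Ctsh (1.49 ± 0.18, adjusted p = 3.95e-06) rose while Ctsk and Ctsd (-0.97 ± 0.27, adjusted p = 0.0112) fell. In the metalloproteinase list 5 of 18 fell (27.8%), or 9 without replicate 3 of NRF2 KO CM/CDDO-Me. Mmp25 (3.78 ± 0.23, adjusted p = 1.43e-10) and Mmp19 (0.77 ± 0.21, adjusted p = 0.00969) rose, which is 11.1% of the list. Of all tested genes 11.8% fell and 14.3% rose.

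NRF2 target genes of the macrophages were lower, not higher, when the medium came from WT cancer cells. Of 40 tested members of the target list 26 fell (65%), 2 rose (5%) and 12 did not pass, with a median log2 difference of -0.72. Of all tested genes 11.8% fell and 14.3% rose. The list also holds Nfe2l2 itself, counted among the falls, and its regulator gene Keap1, counted among the rises. Gsta3, a glutathione transferase gene, was at 6.92, 4.09 and 5.94 TPM in WT CM/CDDO-Me and at 101, 80.1 and 123 TPM in NRF2 KO CM/CDDO-Me BMDMs (-3.8 ± 0.32, adjusted p = 2.37e-08). Gclc, the catalytic subunit of the enzyme that starts glutathione synthesis, was at 27.7, 28.8 and 36.1 TPM and 124, 115 and 262 TPM (-2.14 ± 0.27, adjusted p = 4.87e-06). Nqo1, a quinone reductase gene and the usual readout of NRF2, was at 41.6, 42.7 and 60.5 TPM and 156, 133 and 189.8 TPM (-1.55 ± 0.33, adjusted p = 0.00132). The groups did not overlap for Gclc and Nqo1, while Gsta3 was chosen among genes without overlap. The share of all tested genes without overlap is not given here. With vehicle Nqo1 was low with either medium, and averaged 3.17 ± 0.935 TPM (SD, n = 3) in WT CM/vehicle and 2.96 ± 0.773 TPM in NRF2 KO CM/vehicle BMDMs. In media/CDDO-Me BMDMs it averaged 134 ± 74.5 TPM. Nqo1 thus stood above its vehicle levels in both CDDO-Me groups of the comparison.

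Other enzymes of the NRF2 programme were lower too. Gstm1 was at 255, 223 and 257 TPM with WT CM and 828, 816 and 1188 TPM with NRF2 KO CM (-1.76 ± 0.17, adjusted p = 1.66e-07), and Hmox1, the heme oxygenase gene, at 564, 533 and 537 TPM and 1036, 954 and 1389.8 TPM (-0.86 ± 0.17, adjusted p = 0.000843). The catalase gene Cat (-1.26 ± 0.19, adjusted p = 3.21e-05), the thioredoxin reductase gene Txnrd1 (-0.84 ± 0.16, adjusted p = 0.000496) and the sulfiredoxin gene Srxn1 (-1.11 ± 0.20, adjusted p = 0.000241) were lower as well. The abundant targets Prdx1 (0.22 ± 0.16, adjusted p = 0.324) and Ftl1 (-0.33 ± 0.33, adjusted p = 0.494) did not pass, and pentose phosphate genes were divided, with Pgd lower (-0.49 ± 0.13, adjusted p = 0.00821) and G6pdx not called (-0.15 ± 0.11, adjusted p = 0.332). Thioredoxin, Txn1, went the other way, at 1712, 1742 and 2626 TPM and 672, 670.1 and 569 TPM (1.81 ± 0.18, adjusted p = 2.8e-07), and so did Keap1 (0.73 ± 0.21, adjusted p = 0.0159). Nfe2l2 itself was at 119.6, 111 and 90.6 TPM and 178, 181 and 255 TPM (-0.75 ± 0.25, adjusted p = 0.0297). The Nfe2l2 call was lost under 7 of 19 alternative settings and the Keap1 call under 3, including the fit without replicate 3 of both groups. Without replicate 3 of NRF2 KO CM/CDDO-Me 21 members of the target list fell and 1 rose, with a median of -0.57.

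**Figure D4:**
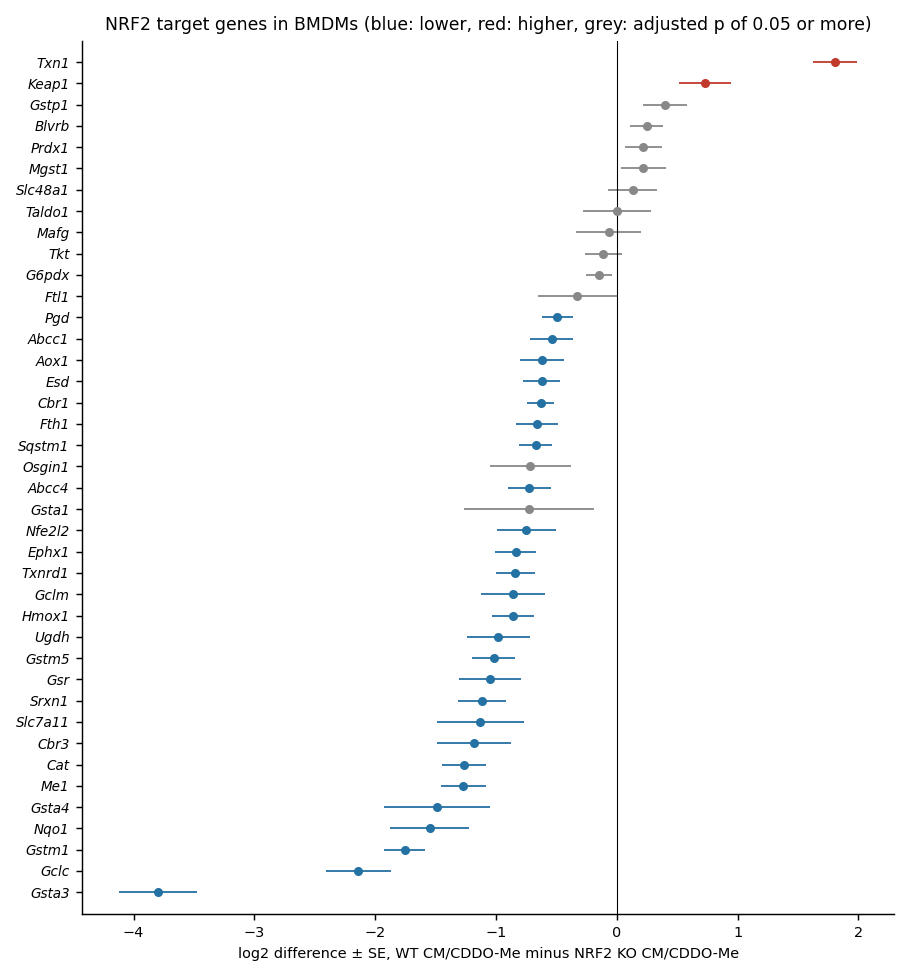
Log2 difference, WT CM/CDDO-Me minus NRF2 KO CM/CDDO-Me, for each of the 40 tested genes of the NRF2 target list, which includes Nfe2l2 and Keap1 (horizontal axis, points with the standard error of the fit). Blue marks 26 genes that fell, red marks Txn1 and Keap1, which rose, and grey marks 12 that did not pass; Gsta3 and Gclc lie farthest to the left.

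Genes of sterol synthesis were lower with WT CM. Of 24 tested members of the cholesterol list 14 fell (58.3%) and 1 rose (4.17%), with a median of -0.63. Of all tested genes 11.8% fell and 14.3% rose. Sqle, the squalene epoxidase gene, was at 6.92, 8.34 and 7.54 TPM and 24.4, 26 and 20.8 TPM (-1.37 ± 0.13, adjusted p = 1.99e-07), and Idi1, an isomerase gene of the same route, at 5.59, 8.22 and 5.52 TPM and 22.5, 27.6 and 19.3 TPM (-1.55 ± 0.15, adjusted p = 2.14e-07). Srebf2, the transcription factor gene of the pathway, was lower by less (-0.55 ± 0.11, adjusted p = 0.00107), and Scap, its escort, did not pass (0.25 ± 0.14, adjusted p = 0.215). The member that rose was Pmvk (1.63 ± 0.20, adjusted p = 3.1e-06), a mevalonate pathway kinase gene, so the pathway was not uniform. In the fatty acid synthesis list 6 of 14 fell (42.9%), led by Acss2 (-1.86 ± 0.25, adjusted p = 9.57e-06). Abca1, which exports cholesterol (-1.02 ± 0.09, adjusted p = 3.96e-08), and Apoc2, an apolipoprotein gene (-2.84 ± 0.26, adjusted p = 8.74e-08), were lower while the exporter gene Abcg1 was higher (1.57 ± 0.24, adjusted p = 4.62e-05).

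Stress, energy and cell cycle genes moved in part. Of 25 integrated stress response genes 12 rose (48%) and none fell, against 14.3% and 11.8% of all tested genes. The rises included Mthfd2, a folate cycle enzyme gene, at 64, 61.4 and 43.7 TPM and 15.5, 16.6 and 11 TPM (2.07 ± 0.23, adjusted p = 1.25e-06), and Trib3 (1.86 ± 0.29, adjusted p = 7.52e-05). Without replicate 3 of NRF2 KO CM/CDDO-Me 10 rose and 1 fell. Of 29 glycolysis and hypoxia genes 7 rose (24.1%), led by the phosphofructokinase gene Pfkp, at 238, 248 and 257 TPM and 43, 46.8 and 46.5 TPM (2.59 ± 0.10, adjusted p = 1.44e-13). The others, among them Slc2a1 (0.02 ± 0.21, adjusted p = 0.962) and Ldha (0.48 ± 0.21, adjusted p = 0.0976), did not pass. Acod1, which makes itaconate, was at 41.8, 29.2 and 32.2 TPM and 3.79, 4.42 and 3.64 TPM (2.98 ± 0.44, adjusted p = 3.07e-05), and Idh1 was lower (-1.2 ± 0.16, adjusted p = 1.36e-05). In the cell cycle list 13 of 40 fell (32.5%) and 2 rose (5%), against 11.8% and 14.3% of all tested genes. Birc5 (-1.59 ± 0.24, adjusted p = 3.81e-05) and Cenpa (-1.27 ± 0.22, adjusted p = 0.000241), which serve mitosis, were lower from levels that were already modest, at 9.06 to 12.8 and 15.4 to 33.1 TPM with NRF2 KO CM. Mki67 did not pass (-0.81 ± 0.31, adjusted p = 0.0576), and Top2a (1.23 ± 0.26, adjusted p = 0.00131) and Pcna (0.80 ± 0.19, adjusted p = 0.0046) were the members that rose.

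Markers of other cells that a marrow culture can hold were checked over whole lists, and their part in the differences above was not tested. Fibroblast and stromal markers summed to 941 to 2411 TPM per library in WT CM/CDDO-Me and to 2212 to 5985 TPM in NRF2 KO CM/CDDO-Me BMDMs, and the ranges overlapped. Of 26 such genes 5 fell (19.2%, against 11.8% of all tested genes) and none rose, with a median log2 difference of -0.95 over the list. Without replicate 3 of NRF2 KO CM/CDDO-Me 12 fell, and with library weights 21 fell. None of the markers was listed at 0 throughout a group. The 5 were the contractile genes Acta2 (73.8, 113 and 52.7 TPM and 544, 692 and 283 TPM, -2.46 ± 0.34, adjusted p = 1.34e-05), Tagln, Cnn1, Myl9 and Tpm2. Col1a1, at 109, 179.7 and 70.4 TPM and 364, 428 and 65.3 TPM, did not pass (-0.79 ± 0.64, adjusted p = 0.396). Fewer cells of a type and less RNA per cell cannot be told apart in such bulk samples. Dendritic cell markers summed to 800.1 to 939 TPM with WT CM and 181 to 384 TPM with NRF2 KO CM, with no overlap. With vehicle these sums were 736 to 804 TPM and 155 to 412 TPM, so the gap was not particular to CDDO-Me. Of 6 markers tested in the CDDO-Me comparison 3 rose and 2 fell. Clec9a was at 95.4, 95.5 and 123 TPM and 0.0909, 0.153 and 0.283 TPM (6.62 ± 0.20, adjusted p = 2.49e-15), a small part of the WT CM sum. Xcr1 (2.23 ± 0.14, adjusted p = 1.85e-10) and the interferon-induced gene Bst2 (2.53 ± 0.43, adjusted p = 0.000152) also rose, and Cd209a (-0.80 ± 0.17, adjusted p = 0.00166) and Itgax (-0.53 ± 0.19, adjusted p = 0.0425) fell. Zbtb46, a defining dendritic cell factor gene, was at 0.453, 0.582 and 0.507 TPM and 1.27, 0.936 and 1.17 TPM (-0.43 ± 0.16, adjusted p = 0.0636), and Flt3 was close to 0, at 0.0088, 0.0111 and 0 TPM and 0.0289, 0.0315 and 0.109 TPM. Macrophage markers summed to 21394 to 24223 TPM with WT CM and 35822 to 45265 TPM with NRF2 KO CM. Lyz2, at the levels given above, was a large part of both sums. Of 14 tested macrophage markers 5 fell (35.7%) and 3 rose (21.4%), against 11.8% and 14.3% of all tested genes. Their median was -0.19, and without replicate 3 of NRF2 KO CM/CDDO-Me 2 fell and 3 rose. Lyz2 (-0.91 ± 0.16, adjusted p = 0.0002) and Cd68 (-0.62 ± 0.17, adjusted p = 0.00835) were among the falls. The Lyz2 call was lost under 2 of 19 alternative settings. Neutrophil markers summed to 130.1 to 139 TPM and 233 to 878 TPM, the highest value being replicate 3 of NRF2 KO CM/CDDO-Me, and of 7 tested Mmp8 was the only call, or 2 fell without that library. Mast cell and basophil markers summed to 3.24 to 9.5 TPM and 12.9 to 17.5 TPM with no overlap, with Mcpt8 lower (-1.56 ± 0.35, adjusted p = 0.00241), Hdc higher (0.95 ± 0.18, adjusted p = 0.000613) and the defining markers Cpa3 and Fcer1a too low to be tested. B cell markers summed to 3.84 to 8.81 TPM and 8.24 to 20.9 TPM, and Ebf1 was lower (-1.32 ± 0.44, adjusted p = 0.0333). The Itgax and Ebf1 calls were lost under 7 of 19 alternative settings each. Endothelial markers summed to 41.9 to 77.5 TPM and 32.7 to 55.2 TPM, with Vwf higher (1.31 ± 0.30, adjusted p = 0.0029) and Cdh5 lower (-2.02 ± 0.68, adjusted p = 0.0327), the latter call being lost under 8 of the 19. Epithelial and carcinoma markers summed to 0.307 to 1.21 TPM and 0.214 to 1.69 TPM, and neither of the 2 tested was called. Erythroid markers had no tested member, and T and NK cell markers had 2, neither of which was called.

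The same media were also given with vehicle, which allows a test of whether the effect of the medium differed with CDDO-Me. For 1040 genes (7.61% of those tested) the WT minus NRF2 KO difference was more positive with CDDO-Me than with vehicle, and for 794 (5.81%) it was more negative, by the interaction term of the limma fit. The positive side held 30 of 33 interferon gamma genes and 41 of 43 type I interferon genes. Cxcl9 was at 0.0352, 0.0471 and 0.0926 TPM in WT CM/vehicle and 0.248, 0.371 and 0.0686 TPM in NRF2 KO CM/vehicle BMDMs, so both vehicle groups were near 0 and the difference between the effects was 10.64 ± 0.33, adjusted p = 7.87e-15. Iigp1 (9.11 ± 0.22, adjusted p = 2.95e-16), Gbp2b (7.85 ± 0.24, adjusted p = 7.87e-15) and Irgm1 (5.13 ± 0.16, adjusted p = 7.87e-15) showed the same pattern of a medium effect that was larger with CDDO-Me. Socs1 differed in that WT CM/vehicle BMDMs already held 22.3, 23.1 and 25.8 TPM against 0.631, 1.14 and 0.169 TPM in NRF2 KO CM/vehicle BMDMs. Its difference between the effects was 2.14 ± 0.30, adjusted p = 3.08e-05.

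Alternative activation genes lay on the negative side. Of 31 tested members 25 had a more negative medium effect with CDDO-Me than with vehicle and none a more positive one. Retnla was at 1990.0, 1753 and 3262 TPM in WT CM/vehicle BMDMs and was listed at 0 in all NRF2 KO CM/vehicle, WT CM/CDDO-Me and NRF2 KO CM/CDDO-Me libraries (difference between the effects, adjusted p = 9.06e-17). Arg1, the arginase gene, was at 681, 765 and 544 TPM in WT CM/vehicle, 0.548, 0.0532 and 1.29 TPM in NRF2 KO CM/vehicle, 0.239, 0.0823 and 0.0554 TPM in WT CM/CDDO-Me and 0.0281, 0.427 and 0 TPM in NRF2 KO CM/CDDO-Me BMDMs (-8.73 ± 0.29, adjusted p = 2.54e-14). Chil3 was at 461, 668 and 1257 TPM, 0.966, 2.43 and 1.66 TPM, 0.856, 3.7 and 1.56 TPM and 1.93, 2.27 and 0.66 TPM in the same order (-7.9 ± 0.62, adjusted p = 1.62e-08). Among these 4 groups the 3 markers were therefore high with WT CM and vehicle only, and with CDDO-Me both media gave values near 0. Within the CDDO-Me comparison 5 of 31 list members were higher and 5 lower (16.1% each), with a median of -0.05. The shares of all tested genes were 14.3% and 11.8%. Mrc1, the mannose receptor gene, was lower with WT CM, at 59.9, 76.2 and 48.3 TPM against 199, 221 and 258 TPM (-1.71 ± 0.23, adjusted p = 1.24e-05), whereas with vehicle it was at 1306, 1193 and 1015 TPM and 251, 238 and 500.1 TPM (-3.69 ± 0.33, adjusted p = 8.68e-08 for the difference between the effects). Pdcd1lg2 was higher with WT CM both with CDDO-Me and with vehicle, where it was at 42.7, 34.8 and 70.5 TPM and 0.275, 0.0932 and 0.642 TPM, and its effects did not pass the test of a difference (-0.53 ± 0.41, adjusted p = 0.522). Of the receptor axis, Il4ra (1.98 ± 0.12, adjusted p = 2.27e-10) and Il2rg (2.24 ± 0.20, adjusted p = 3.77e-08) were higher with WT CM/CDDO-Me, and Il4 was at 6.21, 3.55 and 2.71 TPM and 12.8, 10.4 and 10.2 TPM (-1.15 ± 0.37, adjusted p = 0.0284), a call that was lost under 6 of 19 alternative settings.

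**Figure D5:**
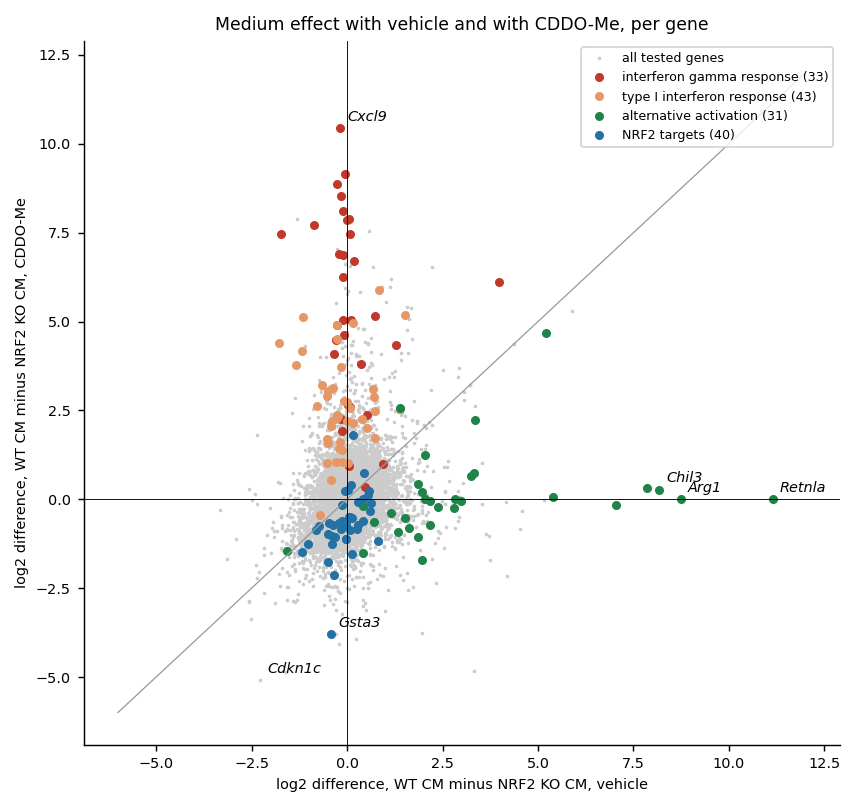
Log2 difference WT CM minus NRF2 KO CM for each tested gene, with vehicle (horizontal axis) and with CDDO-Me (vertical axis); grey points are all tested genes, colours mark 4 gene lists with the number tested in brackets, and the diagonal marks equal effects. Most interferon genes lie high near a vehicle effect of 0, whereas Retnla, Arg1 and Chil3 lie far to the right at a CDDO-Me effect near 0.

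NRF2 target genes and sterol genes also entered the negative side of this test, with 12 of 40 and 17 of 24 members. Gsta3, at 0.621, 0.916 and 1.2 TPM and 1.83, 1.18 and 1.81 TPM with vehicle, had a difference between the effects of -3.39 ± 0.46, adjusted p = 1.94e-05. Cdkn1c was already lower with WT CM under vehicle, at 19.5, 22.6 and 18.1 TPM against 116, 98.4 and 104 TPM, and the gap was wider with CDDO-Me (-2.81 ± 0.42, adjusted p = 7.33e-05). No integrated stress response gene had a more positive effect with CDDO-Me, and Mthfd2 did not pass (0.63 ± 0.33, adjusted p = 0.268).

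The other 2 CDDO-Me groups, give the levels with no cancer cell medium and with that of KEAP1 KO cells, and were compared by level only. On the log2 scale the media/CDDO-Me mean lay nearer to NRF2 KO CM/CDDO-Me than to WT CM/CDDO-Me for 3296 of the 3560 called genes (92.6%), against 68.4% of all tested genes. The KEAP1 KO CM/CDDO-Me mean lay nearer to WT CM/CDDO-Me for 3300 (92.7%), against 77.1% of all tested genes. Called genes were chosen for a difference between WT CM/CDDO-Me and NRF2 KO CM/CDDO-Me. Shares above those of all tested genes may follow in part from that choice. Cxcl9 was at 0, 0.0125 and 0.084 TPM in media/CDDO-Me and at 1614, 1366 and 701 TPM in KEAP1 KO CM/CDDO-Me BMDMs. Gsta3 was at 88.9, 67.4 and 111 TPM and 10.8, 5.71 and 9.81 TPM in the same groups, and Mmp12 at 6095, 6427 and 7825 TPM and 743, 640.4 and 844 TPM. For all 3 genes, medium without cancer cells gave values on the side of NRF2 KO CM, and KEAP1 KO CM gave values on the side of WT CM.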

How the data were processed

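Poly-A RNA of BMDMs was sequenced as paired-end reads, and per the submitters' processing notes transcripts were quantified with Kallisto against GRCm39. The authors deposited 1 table of values named as length-scaled TPM gene counts. Its columns all sum to the same total and were taken as TPM (a read share corrected for transcript length). Comparisons of level between genes rest on that reading. The read depth behind a value is unknown, and no counting error can be given. Kallisto divides reads among similar transcripts by estimation, which makes near-identical paralogs uncertain.

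From these TPM values the 13661 genes above 1 TPM in at least 3 of the 24 libraries were tested. TPM was scaled between libraries by a trimmed mean of log ratios (30% trimmed by ratio, 5% by level), 1 was added, and log2 values of all 8 groups were fitted in limma 3.58.1 (R 4.3.3; 16 residual degrees of freedom, trended variance, two-sided moderated test, Benjamini-Hochberg adjustment over all tested genes, threshold 0.05). The effect of the medium with CDDO-Me was compared with that under vehicle as an interaction term of the same fit. The code was tested on simulated data.

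Genes were named by rule: the 12 largest rises and falls among called genes with a mean of at least 5 TPM and no overlap of the groups, the 4 list members with the smallest adjusted p, genes the study names, the 3 most abundant members of a marker list, and the 6 smallest adjusted p of the interaction. Other named genes were chosen after their values were seen, and some genes that the rule takes are not reported here. The members and gene lists were chosen with earlier results of these data known. No column was left unmapped and no file was left out. Alternatives changed the scaling, filter, pseudocount, variance model, replicate block, libraries in the fit and single replicates. Promoter windows came from RefSeq (GRCm38.p6), matched by symbol for 9987 of the tested genes, and were used for sequence only.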

Additional observations from a re-analysis of the deposited data

Results flagged for a closer look

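For 1834 genes the effect of WT against NRF2 KO medium differed between CDDO-Me and vehicle by the limma interaction test after adjustment, and for 3189 genes before it. Of the 1834 genes, 1446 were also called in the CDDO-Me comparison, 922 of them higher with a positive difference and 520 lower with a negative one. Genes with the smallest adjusted p, among those with a mean of at least 5 TPM, included Retnla, Iigp1, Cxcl9, Gbp2b and Irgm1.

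Among them, the difference between the effects was 10.64 on the log2 scale for Cxcl9, 9.11 for Iigp1, 7.85 for Gbp2b and 5.13 for Irgm1, all on the side of a larger rise with CDDO-Me. For Retnla it was -11.14, a value that depends on the pseudocount because the gene was listed at 0 in 3 of the 4 groups of the test. In KEAP1 KO CM/vehicle BMDMs, which were not part of the test, Retnla was at 1504, 1389.8 and 1883 TPM, and in KEAP1 KO CM/CDDO-Me BMDMs it was listed at 0 in all 3 libraries.

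No test for a library far from the rest of its group was made, because each group has 3 libraries.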

How the results depend on the processing

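The count of 3560 called genes fell to 2335 when only the 6 libraries compared were fitted and rose to 7094 with library weights. For the interaction the same settings gave 1130 and 4492 in place of 1834. Leaving out 1 library gave 2645 to 3478 and 1558 to 2384 called genes, the lowest without replicate 3 of WT CM/CDDO-Me for the former and without its replicate 1 for the latter. Scaling, filter, pseudocount and trend settings left both counts within 1.5 times.

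Same-numbered libraries had correlations of 0.0231, 0.324 and 0.261 in their deviations from the group means. Those between different numbers ran from -0.291 to 0.174. Replicate 1 of NRF2 KO CM/CDDO-Me correlated best with replicate 2 of WT CM/CDDO-Me (0.174), and every other library with its own number. The labels do not say what equal numbers share, and the main fit did not pair them. With the replicate block 4659 genes were called for the CDDO-Me comparison and 2579 for the interaction, or 2446 and 1604 with the block in the libraries compared alone. The fibroblast and stromal markers called lower then numbered 19 and 14.

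Over 172 named genes, 3141 values kept their side of the threshold, 67 lost the call, 30 gained it and 0 changed direction among calls. Values that were not called could change sign, as those of Il6 did, from -0.39 to 0.62. The causes were not tested. Among those lost were Nfe2l2, Keap1, Il4 and Ctsd. The limits are 3 libraries a group, medium from 1 NRF2 KO line, TPM without read depth, and replicate 3 of NRF2 KO CM/CDDO-Me with the fewest genes above 0 of its group.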

Other observations

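Genes outside the lists, chosen after their values were seen, also separated the groups. Calhm6, a gene of a large-pore channel family, was at 607, 575 and 638 TPM in WT CM/CDDO-Me and at 4.78, 3.97 and 3.66 TPM in NRF2 KO CM/CDDO-Me BMDMs (7.05 ± 0.20, adjusted p = 9.13e-16). Dnase1l3, which encodes a DNase of phagocytes, was at 100, 82.2 and 86.7 TPM and 0.0409, 0.0485 and 0.15 TPM (6.52 ± 0.19, adjusted p = 1.64e-15). Klrk1, known for encoding the NK cell receptor NKG2D, was at 46.3, 44.5 and 102 TPM and 0.182, 0.0851 and 0.00972 TPM (5.94 ± 0.36, adjusted p = 1.44e-10). These 3 genes were close to 0 or low with NRF2 KO CM in every library. Hcar2, a receptor gene for hydroxybutyrate and niacin, was at 64.8, 74.6 and 50.5 TPM and 0.514, 0.346 and 0.0508 TPM (5.77 ± 0.16, adjusted p = 5.94e-16), and Batf2, a transcription factor gene, at 279, 265 and 319 TPM and 5.51, 5.68 and 6.63 TPM (5.54 ± 0.23, adjusted p = 5.61e-13). Gbp11 was at 45.3, 36 and 80.4 TPM with WT CM and was listed at 0 in all 3 libraries with NRF2 KO CM.

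On the side of the falls, Tfrc, the transferrin receptor gene through which cells take up iron, was at 11.9, 18.4 and 17.5 TPM with WT CM and 122, 115 and 73.1 TPM with NRF2 KO CM (-2.46 ± 0.17, adjusted p = 1.24e-09). With vehicle its order was the opposite, at 182, 203 and 235 TPM and 60.5, 82.2 and 54.6 TPM, and the difference between the effects was -4.18 ± 0.24, adjusted p = 1.84e-10. F13a1, the gene of a coagulation factor subunit that macrophages express, was at 1.59, 2.76 and 0.852 TPM and 21, 20.9 and 17.3 TPM with CDDO-Me (-2.87 ± 0.33, adjusted p = 1.84e-06). Fpr1, a receptor gene for formylated bacterial peptides, was at 0.906, 0.489 and 0.317 TPM and 10.5, 9.89 and 15.9 TPM (-2.98 ± 0.36, adjusted p = 3.39e-06). In none of these 3 did the groups of the CDDO-Me comparison overlap, but the genes were chosen after their values were seen.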
